A study of Mus musculus with 13 samples.

Results

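Of 48795 genes counted in RNA from the mouse brain, 10 are described here: Ankrd1, Prss23, Npr3, Emp1, Capg, Pawr, Nuak2, Ahnak, F2r and Ptprq. They were picked because they rose in mice with active nuclear YAP1, from genes associated with YAP1 or from the most increased genes, so their rise in those mice is described here without a test. Of the 10, Ankrd1 and Nuak2 also stand on a list of YAP1/TAZ target genes, and 8 are on the list of genes associated with YAP1 in ependymoma that the study used, from which F2r and Ptprq are absent. RNA was sequenced from the right hemisphere, with olfactory bulb and cerebellum removed, of 13 mice at postnatal day 11. The 5 nlsYAP5SA mice were NexCre +/- YAP5SAnls +/-, the 5 control mice were NexCre -/- YAP5SAnls +/-, and the 3 C57BL/6 mice were wild type and not littermates of the others. All were of strain C57BL/6J. NEX-Cre is a knock-in at Neurod6 that drives recombination in neuronal precursors and pyramidal neurons of the cortex and hippocampus, and the transgene is silent until Cre removes a stop cassette. Controls therefore carried the silent transgene, and every nlsYAP5SA mouse carried the Cre allele that no control carried, so the Cre allele and the active transgene cannot be told apart. Each library comes from a hemisphere with many cell types, in which more cells of a type and more RNA per cell cannot be told apart. The labels number the mice without naming litter or sex.

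YAP1 and its paralogue TAZ are coactivators that the Hippo kinases LATS1 and LATS2 phosphorylate and hold outside the nucleus. The 5SA form has the phosphorylated serines replaced, and a nuclear localisation signal keeps it in the nucleus. YAP1 has no DNA-binding domain of its own and acts mainly through TEAD factors, often near sites of AP-1, and its textbook targets include Ctgf, Cyr61 and Ankrd1. In the brain it is found in radial glia and in the ependymal layer, and fusions of YAP1 occur in a group of supratentorial ependymomas.

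The letters just upstream of RefSeq transcription starts are shown first, because TEAD and AP-1 motifs are a feature that the choice of genes did not use. RefSeq promoter windows of GRCm38 (250 bases before to 50 after a start) were given for 8 of the 10 genes, with 15 windows in all, 7 of them for Prss23 and 2 for Emp1. The TEAD motif GGAATG, searched for on both strands, was found in the windows of Ankrd1 and Ahnak, 2 of 8 genes, and in 16.6% of all 27025 genes with a window. The AP-1 motif TGANTCA, which reads the same on both strands, was found for Emp1, Prss23 and F2r, 3 of 8 genes, and in 8.97% of all genes. Counted by window, the TEAD motif was in 2 of the 15 and in 14.7% of all 32851 windows. The AP-1 motif was in 4 of the 15 and in 7.81% of all windows. The 2 motifs share no letters in these windows. A match is a description of the letters only. The stretches of Ankrd1 and Emp1 lie within the limits of these genes in GENCODE M21, given below, since those begin at an earlier start. Below, each stretch is written 5′ to 3′ on the strand of its gene with the motif in capitals. The 2 stretches of Ankrd1 (chr19:36120037-36120066 and chr19:36119950-36119979, minus strand) hold the matches at 210 to 205 and 123 to 118 bases before the start, the only pair of TEAD matches in 1 window among the 8 genes. The stretch of Ahnak (chr19:8989034-8989283, plus strand) holds 1 match at 135 to 130 bases before the start, on the other strand. Those of F2r (chr13:95618488-95618716, minus strand) and Emp1 (chr6:135362708-135362903, plus strand) hold AP-1 matches at 204 to 198 and 145 to 139 bases before the start. The window of Emp1 had another match at 25 to 19 bases, and the match of Prss23 was a single TGACTCA that lay in 2 overlapping windows.
Ankrd1, first match: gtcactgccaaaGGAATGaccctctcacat
Ankrd1, other match: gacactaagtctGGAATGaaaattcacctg
Ahnak: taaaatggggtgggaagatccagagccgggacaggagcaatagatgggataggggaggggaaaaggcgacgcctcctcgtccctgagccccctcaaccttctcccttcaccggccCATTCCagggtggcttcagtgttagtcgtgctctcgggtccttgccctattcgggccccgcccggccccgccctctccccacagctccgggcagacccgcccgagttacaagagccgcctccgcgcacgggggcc
F2r: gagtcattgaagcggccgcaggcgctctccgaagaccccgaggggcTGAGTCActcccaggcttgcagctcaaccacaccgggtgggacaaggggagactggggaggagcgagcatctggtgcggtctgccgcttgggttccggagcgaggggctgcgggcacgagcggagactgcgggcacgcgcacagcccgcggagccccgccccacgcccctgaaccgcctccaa
Emp1: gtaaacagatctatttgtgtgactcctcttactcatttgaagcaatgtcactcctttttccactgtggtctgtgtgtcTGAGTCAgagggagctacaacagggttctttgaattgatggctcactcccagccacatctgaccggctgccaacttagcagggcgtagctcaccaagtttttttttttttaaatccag

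Counts of each gene had been estimated from the reads with RSEM. Each library held between 20871566 and 25524349 estimated counts. Levels are given as CPM, the count scaled to the library size (with edgeR's TMM factor) and to 1000000 counts, and fold changes are from edgeR fits to the 2 groups compared, with their standard error (SE). The check of the genotype was Neurod6, the gene that carries the Cre insertion. Its level was 97.2 ± 7.61 CPM in controls, 94.3 ± 7.44 CPM in C57BL/6 mice and 49.2 ± 7.16 CPM in nlsYAP5SA mice (mean ± SD), with no nlsYAP5SA mouse reaching the lowest control. The study reported tumours and a loss of hippocampal neurons in nlsYAP5SA mice. Fewer such neurons and the inserted allele cannot be told apart in this lower level. Yap1 itself was at 20.7 ± 0.964 CPM in controls and 24.2 ± 1.52 CPM in nlsYAP5SA mice, a log2 fold change of 0.23 (SE 0.06, edgeR adjusted p = 0.0361). The counts do not tell transcripts of the transgene from those of the native gene.

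In every one of the 10 genes, all 5 nlsYAP5SA mice lay above all 5 controls and above all 3 C57BL/6 mice. The genes were chosen for this rise, and nothing is read from it. Over all 16315 genes tested between nlsYAP5SA and control mice, 6.5% showed such a separation upwards, and against C57BL/6 mice the share was 8.71% of 16641 genes. The log2 fold changes against controls ranged from 1.27 for Emp1 to 5.14 for Ankrd1, with a median of 1.53. The comparisons with controls and with C57BL/6 mice share the nlsYAP5SA mice. Ankrd1 and Ptprq passed the filter on low counts only through the nlsYAP5SA mice.

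**Figure D1:**
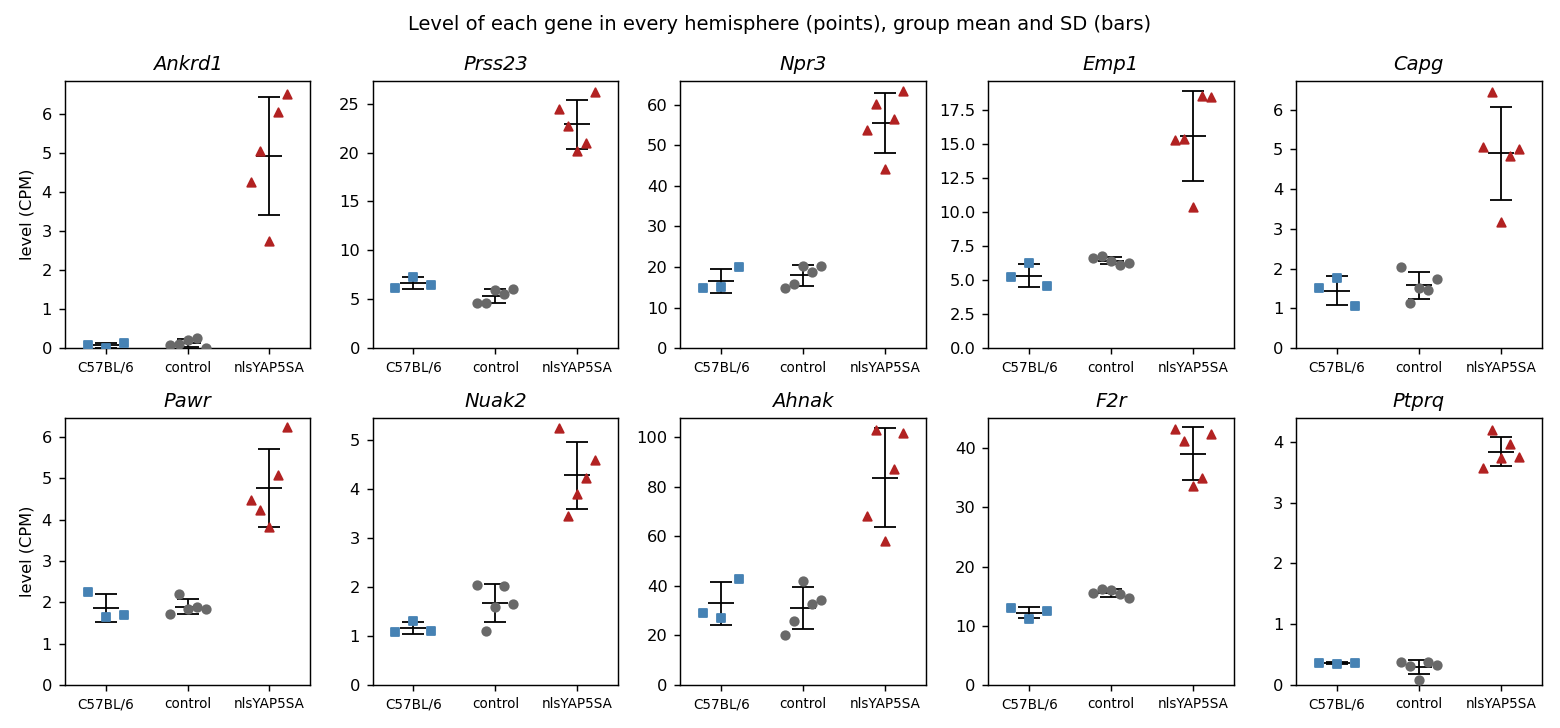
Level of the 10 genes in CPM (vertical axis, linear from 0, its own scale in each panel) in each C57BL/6 (blue squares, 3 mice), control (grey circles, 5 mice) and nlsYAP5SA hemisphere (red triangles, 5 mice), with group means and SD as bars. Every red triangle lies above the points of the other groups. As a fold of the lowest red triangle over the highest other point, the margin is widest for Ankrd1 and Ptprq and narrowest for Ahnak.

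Ankrd1 and Pawr encode regulators that act in the nucleus among other places. Ankrd1 (ENSMUSG00000024803, chr19:36111961-36120099, minus strand) encodes an ankyrin repeat protein of the sarcomere and nucleus that is best known from stressed heart muscle. It was nearly absent without Cre: the controls, replicates 1 to 5, were at 0.0818, 0.117, 0.208, 0.252 and 0 CPM, which are at most 6 counts. The nlsYAP5SA mice were at 4.25, 5.04, 2.73, 6.04 and 6.51 CPM, or 63 to 139 counts. C57BL/6 mice were at 0.0897, 0 and 0.121 CPM, at most 3 counts. A library at 0 allows up to 3 counts, so these low levels carry a wide counting error. The lowest nlsYAP5SA mouse was 10.8-fold above the highest control. The log2 fold change was 5.14 (SE 0.40), and it was the largest of the 10.

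Pawr (ENSMUSG00000035873, chr10:108332121-108414240, plus strand) encodes PAR-4, a pro-apoptotic protein that binds WT1 and atypical protein kinase C. Controls were at 1.72, 2.19, 1.83, 1.89 and 1.84 CPM and nlsYAP5SA mice at 4.48, 4.24, 3.81, 5.09 and 6.23 CPM. C57BL/6 mice, at 2.24, 1.63 and 1.70 CPM, lay to both sides of the controls. The mean was 1.90 ± 0.178 CPM in controls and 4.77 ± 0.938 CPM in nlsYAP5SA mice, a log2 fold change of 1.32 (SE 0.15). The controls differed little from each other, with a coefficient of variation (SD over mean) of 9.37% against 19.7% in nlsYAP5SA mice.

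Nuak2 (ENSMUSG00000009772, chr1:132316126-132333488, plus strand) is a kinase of the AMPK family that LKB1 activates and that acts on myosin phosphatase. The controls were at 2.05, 1.10, 1.58, 2.02 and 1.65 CPM. The nlsYAP5SA mice were at 5.24, 3.44, 3.90, 4.22 and 4.59 CPM, and the C57BL/6 mice at 1.08, 1.29 and 1.09 CPM. The C57BL/6 mice thus stood at the lower edge of the controls, and the log2 fold change of nlsYAP5SA mice was 1.35 (SE 0.18) against controls and 1.87 (SE 0.19) against C57BL/6.

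Capg, Ahnak and Emp1 belong to the actin cytoskeleton and the cell membrane. Capg (ENSMUSG00000056737, chr6:72544391-72562983, plus strand) caps the barbed ends of actin filaments and is a member of the gelsolin family. It was at 2.05, 1.14, 1.5, 1.47 and 1.75 CPM in controls and at 5.06, 6.45, 3.16, 4.83 and 5.01 CPM in nlsYAP5SA mice. The C57BL/6 mice were at 1.52, 1.77 and 1.05 CPM. The log2 fold change against controls was 1.63 (SE 0.20), and the lowest nlsYAP5SA mouse exceeded the highest control 1.55-fold.

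Ahnak (ENSMUSG00000069833, chr19:8989284-9076914, plus strand) encodes a giant scaffold protein that binds the S100A10 and annexin A2 complex under the plasma membrane. Its controls spread over 20.0, 26.0, 42.1, 32.7 and 34.2 CPM. The nlsYAP5SA mice were at 68.2, 103, 58.3, 87.3 and 102 CPM and the C57BL/6 mice at 29.1, 27.0 and 42.7 CPM. As a fold, the gap between the groups was the smallest of the 10 genes: the lowest nlsYAP5SA mouse was 1.39-fold above the highest control. The means were 31.0 ± 8.39 and 83.7 ± 20.0 CPM (SD, 5 mice each), with a log2 fold change of 1.44 (SE 0.20).

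Emp1 (ENSMUSG00000030208, chr6:135362545-135383173, plus strand) encodes a 4-span membrane protein of the PMP22 family. The controls lay close together at 6.58, 6.77, 6.38, 6.13 and 6.24 CPM, a coefficient of variation of 4.05%. The nlsYAP5SA mice were at 15.2, 15.3, 10.4, 18.5 and 18.4 CPM, a coefficient of 21.3%. C57BL/6 mice were at 5.20, 6.23 and 4.52 CPM. The log2 fold change of 1.27 (SE 0.14) was the smallest of the 10.

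F2r, Npr3 and Ptprq encode receptors or receptor-type proteins of the cell surface. F2r (ENSMUSG00000048376, chr13:95601803-95618487, minus strand) encodes PAR1, the receptor that thrombin activates by cleavage. It was at 15.5, 16.3, 16.0, 15.3 and 14.6 CPM in controls and at 43.3, 41.3, 33.6, 34.9 and 42.3 CPM in nlsYAP5SA mice. The 3 C57BL/6 mice, at 12.9, 11.2 and 12.5 CPM, all lay below the 5 controls. The means of controls and nlsYAP5SA mice were 15.5 ± 0.647 and 39.1 ± 4.47 CPM, and the log2 fold change of 1.33 had the smallest error of the 10 (SE 0.08).

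Npr3 (ENSMUSG00000022206, chr15:11839896-11907287, minus strand) encodes the natriuretic peptide clearance receptor, which removes natriuretic peptides and lacks a guanylyl cyclase domain. The controls were at 14.8, 15.7, 20.3, 18.9 and 20.1 CPM, the nlsYAP5SA mice at 53.7, 60.2, 44.1, 56.4 and 63.3 CPM and the C57BL/6 mice at 14.8, 15.0 and 20.1 CPM. The mice without Cre covered nearly the same span of levels in both groups. The log2 fold change against controls was 1.63 (SE 0.11).

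Ptprq (ENSMUSG00000035916, chr10:107517049-107720051, minus strand) encodes a receptor-type phosphatase that dephosphorylates phosphoinositides and is known from the stereocilia of hair cells in the inner ear. It was almost absent without Cre, at 0.368, 0.313, 0.0834, 0.378 and 0.331 CPM in controls, which are 2 to 9 counts, and at 0.359, 0.336 and 0.363 CPM in C57BL/6 mice. The nlsYAP5SA mice were at 3.57, 4.19, 3.73, 3.96 and 3.75 CPM, or 79 to 91 counts. They were the most uniform of the 10 genes, with a coefficient of variation of 6.25%, while Ankrd1 varied by 30.6% in the same mice. The log2 fold change was 3.68 (SE 0.24).

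Prss23 (ENSMUSG00000039405, chr7:89507783-89527187, minus strand) encodes a secreted serine protease. The controls were at 4.62, 4.58, 5.92, 5.50 and 6.09 CPM, and the nlsYAP5SA mice at 24.5, 22.7, 20.1, 21.0 and 26.2 CPM. The C57BL/6 mice were at 6.14, 7.29 and 6.50 CPM, above each of the 5 controls. After Ankrd1 and Ptprq it had the largest log2 fold change, 2.10 (SE 0.11). An antisense gene, Prss23os, overlaps it and reached at most 2 counts in a library.

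**Figure D2:**
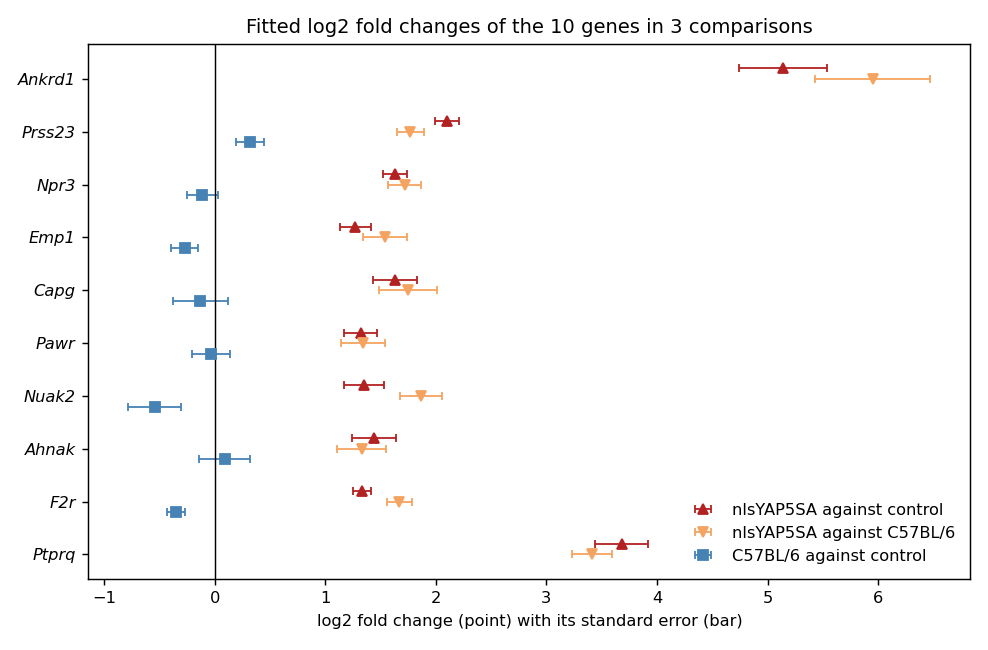
Fitted log2 fold changes of the 10 genes (horizontal axis, points) with their standard errors (bars) for nlsYAP5SA against control (red), nlsYAP5SA against C57BL/6 (orange) and C57BL/6 against control (blue, 8 genes that passed the filter on low counts). Red and orange points lie between 1.27 and 5.95, and blue points between -0.54 and 0.32.

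Levels of different genes were compared per length, as TPM from the exon lengths of the GENCODE M21 annotation. In controls F2r was the most abundant of the 10 at 14.5 ± 0.930 TPM. Npr3 (6.00 ± 1.09 TPM), Ahnak (4.90 ± 1.49 TPM) and Prss23 (4.44 ± 0.758 TPM) followed. Ahnak lay within its SD of both of these neighbours, and Pawr (3.39 ± 0.366 TPM) and Emp1 (3.37 ± 0.118 TPM) differed from each other by less than their SD. Capg (1.94 TPM) and Nuak2 (1.34 TPM) were lower, and Ankrd1 (0.146 ± 0.118 TPM) and Ptprq (0.122 ± 0.0512 TPM) stood at the end within their spread of each other. In nlsYAP5SA mice F2r still led at 37.1 ± 5.91 TPM. Prss23 (19.2 ± 2.73 TPM) and Npr3 (18.7 ± 2.83 TPM) came next without a difference beyond their spread, and Ptprq remained the lowest at 1.61 ± 0.125 TPM. Ankrd1 reached 5.37 ± 1.60 TPM, within the spread of Capg at 6.15 ± 1.66 TPM.

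The comparison of C57BL/6 with control mice asks whether the genes differed between mice without Cre, a difference that the genes were not picked for, although the controls are those against which their rise was seen. The filter kept 8 of the 10 genes here, all but Ankrd1 and Ptprq. None of the 8 was called at an adjusted p of 0.05 or less by edgeR's quasi-likelihood test or by DESeq2, where 0.169% of 16546 genes were called by edgeR. At an unadjusted p of 0.05 or less there were 4 of the 8, F2r, Prss23, Emp1 and Nuak2, and 3.78% of all genes tested. The median log2 difference of the 8 genes, C57BL/6 minus control, was -0.12, against 0.00 over all genes tested. The mean was lower in C57BL/6 mice for 6 genes and higher for 2. The p values set the difference between the groups against the spread between mice within them. The C57BL/6 mice differed from the controls both in litter and in the silent transgene, and the 2 cannot be told apart here.

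F2r had the difference with the least error, a log2 fold change of -0.35 (SE 0.08, 95% interval -0.53 to -0.17, edgeR adjusted p = 0.378, unadjusted p = 0.0017). Its 3 C57BL/6 mice did not overlap the controls, a separation downwards seen in 1.39% of all genes. Prss23 differed the other way, by 0.32 (SE 0.13, interval 0.02 to 0.61, edgeR adjusted p = 1), and its C57BL/6 mice all exceeded the controls, as in 1.95% of all genes. Nuak2 was at -0.54 (interval -1.07 to -0.01) and Emp1 at -0.27 (interval -0.54 to -0.01). The intervals of Npr3 (-0.43 to 0.21), Capg (-0.68 to 0.42), Pawr (-0.41 to 0.35) and Ahnak (-0.43 to 0.61) included 0.

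The nlsYAP5SA mice differed among themselves in the 10 genes. Replicate 3 was the lowest of the 5 for 8 genes, all but Nuak2 and Ptprq, and lay on average 0.34 below the group mean on the log2 scale. Replicate 5 was the highest for 4 genes and lay 0.20 above the mean on average. Without replicate 3 the log2 fold changes against controls were 5.29 for Ankrd1, 1.39 for Emp1 and 1.75 for Capg. The same library also had the lowest level of Yap1 of the 5, 22.6 CPM, and of Wwtr1, which encodes TAZ, 31.3 CPM. Its summed level of reactive astrocyte markers (861 CPM), of microglial markers (392 CPM) and of meningeal fibroblast markers (162 CPM) was the lowest of the 5 too, as were those of mural cell (206 CPM), border macrophage (16.2 CPM) and oligodendrocyte precursor markers (244 CPM). This made 6 of the 13 marker lists, and replicate 4 was the lowest in 5. In the other 7, neurons (4023 CPM), endothelial cells (152 CPM) and choroid plexus (158 CPM) among them, a library other than replicate 3 was the lowest. The part of these cell types in the lower levels was not tested.

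Deviations from the group means were then compared between genes over the 13 mice, with 100000 permutations of the mice within their groups. The 45 pairs of genes had Pearson coefficients between -0.37 and 0.95 with a median of 0.24, and 37 were positive. Only Npr3 and Ahnak passed the Benjamini-Hochberg adjustment over the pairs (r = 0.95, permutation p = 6e-05, adjusted p = 0.0027, Spearman's rho = 0.91, permutation p = 0.00011, adjusted p = 0.0049). Without the 2 mice farthest from the median of Npr3, r was 0.92. Npr3 and Ahnak are also the members with the longest exons, 9389 and 19938 bases. The libraries of each group differed in their balance between long and short genes, measured as the median log2 deviation of 4885 genes of 6000 bases or more minus that of 2879 genes of 2000 bases or fewer. This balance ranged from -0.30 to 0.22 in controls, from -0.05 to 0.20 in nlsYAP5SA mice and from -0.30 to 0.31 in C57BL/6 mice. Within groups it followed the level of Ahnak (r = 0.92, permutation p = 2e-05, adjusted over the 10 genes 0.0002, rho = 0.97, permutation p = 2e-05, adjusted 0.0002) and that of Npr3 (r = 0.87, permutation p = 0.00036, adjusted 0.0018, rho = 0.88, permutation p = 0.00052, adjusted 0.0026). Without the 2 mice farthest from the median balance the coefficients were 0.92 and 0.88. For the other 8 genes the adjusted permutation p of r was 0.17 or more, and Ptprq, with 7499 bases, had r = -0.24. With the balance as a covariate, a choice made after the data were seen, the log2 fold change in nlsYAP5SA mice against controls was 1.27 for Ahnak and 1.55 for Npr3, against 1.44 and 1.63 without it.

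**Figure D3:**
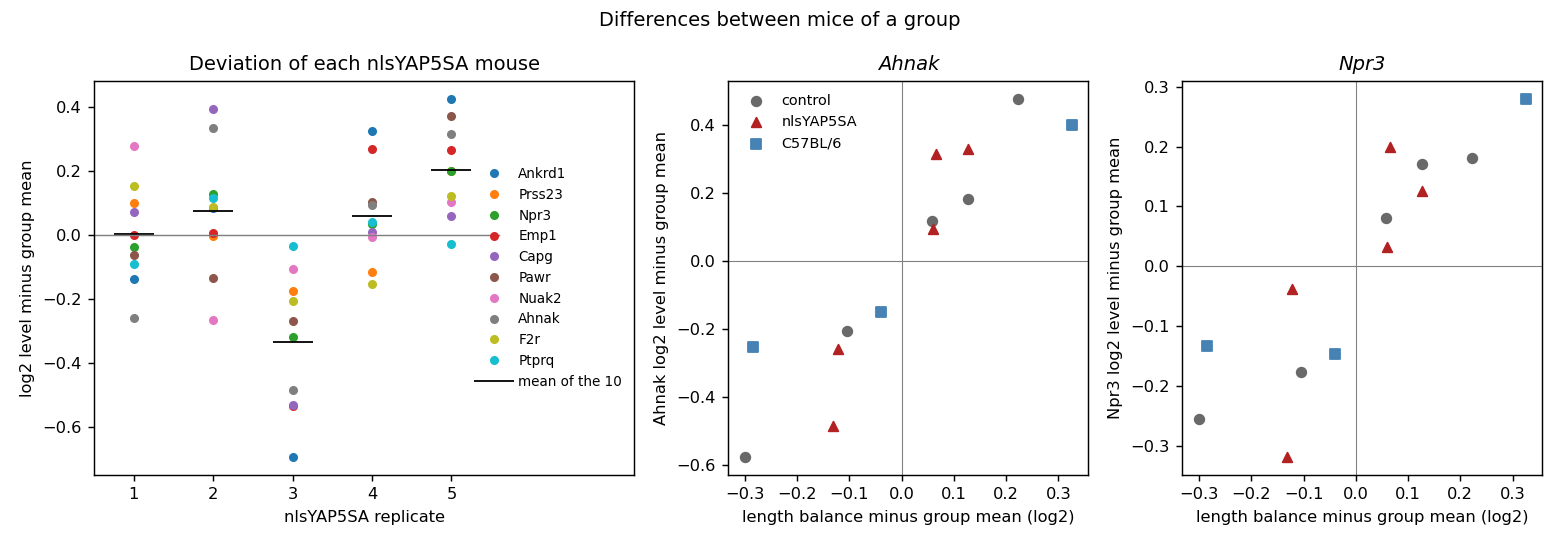
Left, the log2 level of each of the 10 genes minus its group mean (vertical axis) in the 5 nlsYAP5SA mice (horizontal axis), with the mean of the genes as a black line, which is lowest in replicate 3 at -0.34. Middle and right, the deviation of Ahnak and of Npr3 (vertical axes, log2) against the deviation of the length balance of the library (horizontal axes, log2) in the 13 mice, coloured by group, with r of 0.92 and 0.87.

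The other genes of the YAP1/TAZ target list were compared next, to set the 10 genes beside the rest of the pathway. Of 20 target genes, 13 rose and 1 fell in nlsYAP5SA mice against controls, 65% higher, where 7.36% of all 16315 genes were called higher and 3.44% lower. Their median log2 fold change was 0.55, against -0.01 over all genes. Transcripts of Cyr61 and Ctgf, which encode secreted proteins, rose by 2.48 (SE 0.18) and 1.43 (SE 0.09) on the log2 scale, the latter from 17.8 ± 1.19 to 48.1 ± 6.65 CPM. Amotl2, an angiomotin that binds YAP1, rose by 1.56 (SE 0.07), the kinase Lats2 by 1.12 (SE 0.10) and the phosphatase Ptpn14, which also binds YAP1, by 0.94 (SE 0.18). Igfbp3, which binds insulin-like growth factors, rose by 1.56 (SE 0.20), the ferlin Myof by 1.25 (SE 0.16), the extracellular protein Ccdc80 by 1.14 (SE 0.14) and Nt5e, the ecto-nucleotidase CD73, by 0.97 (SE 0.10). The transcription factor Foxf2 fell by 0.61 (SE 0.13). The edgeR adjusted p of these 10 genes was 0.00705 or less.

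Of the 140 other genes on the study's YAP1-associated list, the filter kept 133, of which 31 rose and 1 fell, 23.3% higher, and 104 had a higher mean in nlsYAP5SA mice. Of the 133, 2 passed the filter only through the nlsYAP5SA mice, and without them 30 of 131 rose. Their median log2 fold change over the 133 was 0.17, against -0.01 over all genes. The lists overlap: Cyr61, Ctgf, Myof, Ptpn14 and Tgfb2 are also among the 20 targets and were counted as higher in both. S100a10 is also among the relatives below. With Y-linked genes added as a covariate 15 rose in place of 31, where 476 genes in all were called higher in place of 1200. The 8 genes of this list that are described here were picked from it with these results known, so the remainder is what is left after they were taken out. Between C57BL/6 and control mice none of the 20 targets, of the 131 tested YAP1-associated genes or of the 32 tested relatives below was called by edgeR. At an unadjusted p of 0.05 or less there were 2, 3 and 3 of them, beside 3.78% of all genes: the share was above that for targets and relatives and below it for the YAP1-associated genes. DESeq2 called 1, 1 and 0.

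The nearest relatives and partners of the 10 genes were listed by protein family or binding. Of 40 such genes 34 were tested, 6 rose and 1 fell, 17.6% higher, with a median log2 fold change of 0.15, beside 7.36% higher and 3.44% lower over all genes. Ankrd2 and F2rl1, 2 of the 6, passed the filter on low counts only through the nlsYAP5SA mice, and without such genes 4 of 32 rose, beside 6.97% of all genes. With the Y-linked covariate 3 of the 34 rose, beside 2.92% of all genes. F2rl1, the protease-activated receptor PAR2 and relative of F2r, was at 0.370 CPM (6 to 14 counts) in controls and 1.37 CPM (23 to 40 counts) in nlsYAP5SA mice, a log2 fold change of 1.90 (SE 0.28). Ankrd2, a muscle ankyrin repeat protein like Ankrd1, was at 0.254 CPM (1 to 12 counts) and 0.764 CPM (10 to 26 counts), a log2 fold change of 1.58 (SE 0.45). Anxa2, a partner of Ahnak, rose by 0.80 (SE 0.10, edgeR adjusted p = 0.000213), while its complex partner S100a10 was at 0.32 (edgeR adjusted p = 0.307). In the family of Emp1, Emp3 rose by 0.63 (SE 0.17) and Pmp22 by 0.50 (SE 0.07), while Emp2 was at -0.19 (SE 0.10, edgeR adjusted p = 0.237). Nuak1, the paralogue of Nuak2, rose by 0.22 (SE 0.05), and the atypical protein kinase C gene Prkcz, whose product binds that of Pawr, fell by 0.16 (SE 0.05). Nppa, a ligand of the natriuretic peptide receptors, was at 0.90 (edgeR adjusted p = 0.0514). The 6 that could not be tested were Nppb, Scin, Wt1, F2, F2rl2 and F2rl3, each with at most 13 counts in a library.

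**Figure D4:**
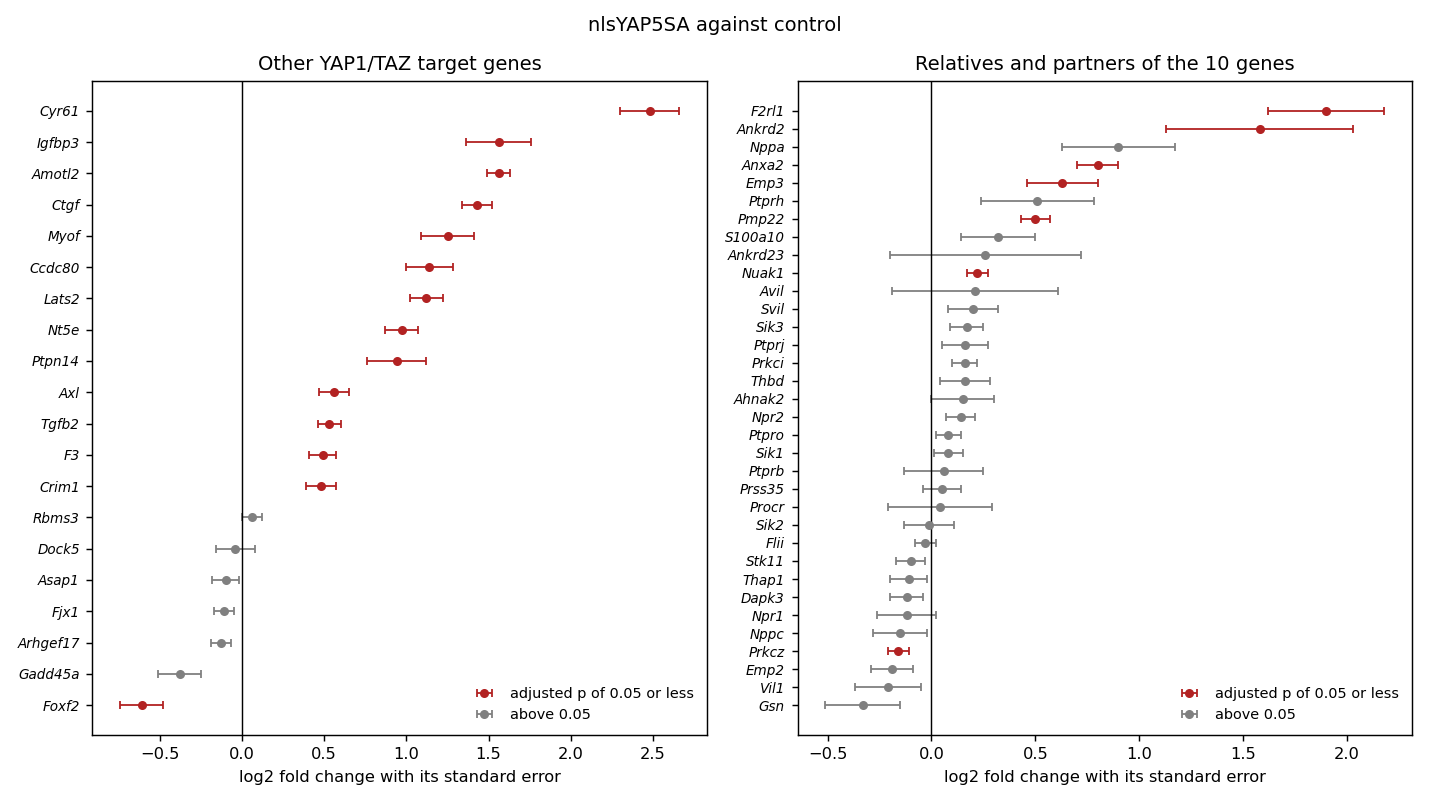
Log2 fold change in nlsYAP5SA against control mice (horizontal axes, points) with its standard error (bars) for the 20 other YAP1/TAZ target genes (left) and the 34 tested relatives and partners (right), in red where the edgeR adjusted p was 0.05 or less. On the left 13 red points lie above 0 and 1 below, and on the right 6 above and 1 below.

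Markers of some cell types that the hemisphere holds differed between nlsYAP5SA and control mice, in both directions, and those of others did not. All 5 markers of reactive astrocytes were called higher in nlsYAP5SA mice, 1 of which, Lcn2, passed the filter on low counts only through these mice, and their summed level went from 236 to 285 CPM in controls to 861 to 1123 CPM. Of 6 microglial markers 5 rose, with sums of 275 to 347 and 392 to 513 CPM. Of 6 meningeal fibroblast markers 2 rose and 1 fell (121 to 191 and 162 to 254 CPM), and 1 of 6 ciliated ependymal markers rose (11.3 to 25.2 and 24.1 to 28.1 CPM). Choroid plexus markers, of which 1 of 6 rose, spanned 9.55 to 234 CPM in controls and 12.3 to 305 CPM in nlsYAP5SA mice. In the vessel wall 3 of 6 mural markers fell and 1 rose (299.7 to 364 and 206 to 310 CPM), and 2 of 6 endothelial markers fell. None of 5 neuronal markers was called by edgeR (3986 to 4209 and 3728 to 4149 CPM), nor any of the 5 oligodendrocyte or 4 oligodendrocyte precursor markers. Without adjustment 0, 4 and 2 of them passed 0.05, a level at which the share over all genes was not computed for this comparison. DESeq2 called 0, 2 and 0 of them, beside 2259 of all 16315 genes. Of the remaining lists, 2 of 6 astrocyte, 1 of 4 border macrophage and 1 of 5 radial glia markers rose. No marker was at 0 in a whole group, and none of the 69 tested was called between C57BL/6 and control mice by edgeR or DESeq2, and 1 passed 0.05 without adjustment. Within groups, 130 relations between a summed marker level and one of the 10 genes were computed. Border macrophage markers passed the adjustment with Ahnak (r = 0.89, permutation p = 0.00012, adjusted p = 0.016, rho = 0.88, permutation p = 0.00034, adjusted p = 0.044) and, by r alone, with Npr3 (r = 0.81, permutation p = 0.00053, adjusted p = 0.034, rho = 0.77, permutation p = 0.004, adjusted p = 0.13). The coefficients were 0.79 and 0.70 without the 2 mice farthest from the median. Astrocyte markers (r = 0.84 with Ahnak and 0.79 with Npr3) and oligodendrocyte precursor markers (0.83 and 0.81) came close without passing. Ahnak and Npr3 are also the genes whose level followed the length balance of the library. The part of that balance in these relations was not tested. The part of these cell types in the levels of the 10 genes in nlsYAP5SA mice was not tested.

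Likeness to the 10 genes was measured as the Pearson coefficient, over the 13 mice, with the mean of their standardized log2 (CPM + 0.5). The coefficient rests mainly on the difference between nlsYAP5SA mice and the rest, so the coefficient of the deviations within groups is given beside it. The 5 genes outside the group with the highest values were Ms4a6c (r = 0.994, within groups 0.79), Ltbp2 (0.992 and 0.73), Zfp185 (0.992 and 0.68), Angpt4 (0.990 and 0.71) and AB124611 (0.989 and 0.84). Ms4a6c is a 4-span membrane protein of the MS4A family, Ltbp2 a protein of the extracellular matrix, Zfp185 an actin-associated LIM domain protein and Angpt4 an angiopoietin. Ltbp2 went from 0.449 ± 0.0691 to 16.2 ± 5.02 CPM, and Angpt4 from 0.150 ± 0.0440 to 2.94 ± 0.798 CPM. Ms4a6c was at 0.673 CPM in controls and 4.05 CPM in nlsYAP5SA mice, Zfp185 went from 1.06 to 3.85 CPM and AB124611 from 0.269 to 1.20 CPM. Angpt4 (2 to 5 counts in controls) and AB124611 (5 to 8 counts) passed the filter on low counts only through the nlsYAP5SA mice. All of these genes were selected for their likeness, so the values are a description.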

How the data were processed

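RNA of 13 right hemispheres was analysed (5 control, 5 nlsYAP5SA and 3 C57BL/6 mice, grouped by their labels). After trimming with cutadapt and alignment with STAR to GRCm38, the authors deposited estimated counts per gene from RSEM 1.3.0, which are neither normalized nor filtered. A strand setting is not given in the sources used here. Between 12.4% and 13.3% of the values of a library are not whole because RSEM divides reads that match several genes.

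The estimated counts were rounded and analysed in R 4.3.3 with edgeR 4.0.16 (TMM, filterByExpr with a minimum count of 10 and a total of 15, two-sided quasi-likelihood test, fitted to the 2 groups of a comparison). CPM are relative to the counts of the genes kept over the 13 samples, scaled with the TMM factors. A call is an adjusted p (Benjamini-Hochberg, over all genes tested) of at most 0.05. Python 3.11.15 and scipy 1.17.1 were used for permutation tests on log2 (CPM + 0.5). The correlations were planned as a description, and their p values were added later. No pair of replicates agreed within sampling noise. Positions are from GENCODE M21 and promoter windows from RefSeq, both on GRCm38. Printed stretches of promoters leave out annotated exons or are cut to 30 bases around a match. Scripts were tested on simulated data.

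The 10 genes, the lists of targets, relatives and markers and the rule for named genes (all 10 genes, the genotype check, up to 10 called genes per list with the largest change, and the 5 genes most alike) were chosen with earlier results of these data known. The alternatives were DESeq2 1.42.0 (Wald test, and its size factors in edgeR), library size alone, other filters, all 13 samples in 1 fit, a replicate block, Y-linked genes or Ttr as covariates and leaving out each mouse. The length balance as a covariate was added after the data were seen. Limits from a count of 0 cover counting error only, and intervals of fold changes are from the edgeR fits.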

Additional observations from a re-analysis of the deposited data

Results flagged for a closer look

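The values of the 10 genes, of 3 genes that check the genotype and of 13 summed marker lists were searched for a sample that stands apart in a group of 5 mice by Dixon's criterion. Chance flags about 1 in 20 groups, and 2 of 52 were found here. For Ptprq, control replicate 3 was at 0.0834 CPM, or 2 counts, while the other controls lay between 0.313 and 0.378 CPM. For Wwtr1, control replicate 1 was at 32.2 CPM, and the other controls lay between 39.4 and 40.9 CPM.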

How the results depend on the processing

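The log2 fold changes of the 10 genes in nlsYAP5SA mice kept their direction under every alternative that gave a value. At least 10 counts in every sample left no value for Ankrd1 and Ptprq. Their median against controls stayed between 1.31 and 1.62. With the Y-linked genes as a covariate the difference of F2r from controls was 1.15, that of Capg 1.35 and that of Prss23 1.96, and the Ankrd1 difference from C57BL/6 mice was 5.46 and 6.55 without C57BL/6 replicates 2 and 3. In C57BL/6 against control mice none of the 8 genes was called under the 18 alternatives, with an adjusted p for F2r between 0.104 and 0.998. The differences of Capg, Pawr, Npr3 and Ahnak there stayed between -0.30 and 0.22, and those of Capg, Pawr and Ahnak changed sign in some alternatives.

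With the Y-linked genes as a covariate, 542 genes were called against controls instead of 1761, with 476 of them higher instead of 1200 (87.8% against 68.1%). The other YAP1-associated genes called higher were then 15 instead of 31, and the relatives 3 instead of 6. The length balance gave 3099 calls, 55.3% of them higher. The other YAP1/TAZ target genes called higher numbered 11 to 13 throughout. Leaving out 1 mouse gave 1210 to 1891 calls, 27 to 38 YAP1-associated genes and 4 to 5 relatives. Calls between C57BL/6 and control mice numbered 28, and 16 with at least 10 counts in every sample, 59 with DESeq2, 44 with all 13 samples in 1 fit, 54 with the length balance and 19 to 27 without 1 mouse. The cause of these shifts was not tested.

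Same-numbered mice did not deviate together in every pair (correlations of -0.315 to 0.312 between control and nlsYAP5SA mice, -0.275 to 0.073 between C57BL/6 and nlsYAP5SA mice and -0.023 to 0.486 between control and C57BL/6 mice), so the numbers are not taken as a pairing. With a replicate block 1239 genes were called against controls and 15 between C57BL/6 and control mice. Depth limits Ankrd1 and Ptprq outside the nlsYAP5SA group, where they had at most 9 counts in a library.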
